A study of Homo sapiens with 6 samples.

Results

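The 91 protein-coding genes for cytosolic ribosomal proteins were examined among the 20037 protein-coding genes of the RefSeq table of GRCh38. They were taken by symbol alone, as genes named RPL or RPS with a number or RPSA, RPLP0, RPLP1 and RPLP2, without the RPS6K kinases. Of these, 77 encode the standard proteins of the ribosome and are called canonical here. The other 14 are paralogs such as RPL10L and RPL39L, the Y-linked copies, the binding protein gene RPS19BP1 and 3 read-through genes that join a ribosomal protein gene to its neighbour. The large subunit is represented by 46 canonical genes with RPL symbols and the small subunit by 31 with RPS symbols.

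The ribosome builds every protein of the cell, and its large and small subunits each combine ribosomal RNA with a fixed set of proteins. The genes for these proteins are short, lie scattered over the genome and are transcribed strongly in dividing cells, pluripotent stem cells among them. Their transcripts typically begin with a C followed by a run of pyrimidines, the 5′ terminal oligopyrimidine (TOP) motif through which growth signals control their translation. Many host small nucleolar RNAs (snoRNAs) in their introns, and their reverse-transcribed messages have left large numbers of processed pseudogenes.

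ATAC-seq, a method in which Tn5 transposase inserts adapters into open DNA, was run on the H1 human embryonic stem cell line to find accessible chromatin. Cells received lentiviral short hairpins and were selected with puromycin. The hairpins shHNRNPU #1 and shHNRNPU #2 target HNRNPU, a nuclear protein that binds RNA and DNA and is assigned to the nuclear matrix, and shLUC is the control hairpin, each with 2 libraries from a single cell line. Where the repeats came from is not given in the sources used here, so differences were judged against a spread that may be technical. Each library was available as a list of 52168 to 63519 peak summits with a score, the −log10 q-value of the peak. Read depth is unknown and the loss of HNRNPU itself is not measured by these values. As a check of the label, all 5 pluripotency genes of the list that the table held under their symbols (POU5F1, SOX2, NANOG, LIN28A and DNMT3B) were open in all 6 libraries, as were 4 of 7 genes of other lineages, so that openness at a gene end does not by itself tell the cell type.

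A gene was called open in a library if a summit lay within 2000 bp of either of its ends. Since scores are not comparable between libraries, the strongest summit at a gene was expressed as its percentile among all summits of the same library, the best-summit percentile, and a gene without a summit was set to 0. A gene was said to separate the groups if all 4 shHNRNPU libraries lay above, or all below, both shLUC libraries.

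The promoters that carry the results are shown from 90 bases before the annotated start to 20 bases from it on, on the strand of the gene, from the RefSeq table of promoters (GRCh38.p14). Capitals mark a run of at least 5 C or T bases over the start and any match to the motifs described below. The first 3 belong to genes with the strongest summits, RPS21 and RPL39 had the largest differences between the groups, and RPL10 is shown with its paralog RPL10L, a pair picked after their values had been seen. The positions are chr4:151099538-151099647 for RPS3A, chr6:132814479-132814588 for RPS12 and chr11:8682702-8682811 for RPL27A, all on the plus strand. They are chr20:62387013-62387122 (plus strand) for RPS21, chrX:119791611-119791720 (minus strand) for RPL39, chrX:154397975-154398084 (plus strand) for RPL10 and chr14:46651762-46651871 (minus strand) for RPL10L.
RPS3A: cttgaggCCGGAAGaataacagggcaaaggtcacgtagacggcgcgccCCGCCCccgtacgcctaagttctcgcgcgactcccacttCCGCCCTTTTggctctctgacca
RPS12: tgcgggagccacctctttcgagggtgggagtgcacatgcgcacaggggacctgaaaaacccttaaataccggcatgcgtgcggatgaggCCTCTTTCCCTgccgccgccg
RPL27A: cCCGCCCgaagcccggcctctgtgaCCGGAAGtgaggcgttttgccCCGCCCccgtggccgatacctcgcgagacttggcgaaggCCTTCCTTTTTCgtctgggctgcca
RPS21: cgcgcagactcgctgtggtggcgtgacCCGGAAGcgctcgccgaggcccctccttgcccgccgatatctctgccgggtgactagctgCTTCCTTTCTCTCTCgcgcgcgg
RPL39: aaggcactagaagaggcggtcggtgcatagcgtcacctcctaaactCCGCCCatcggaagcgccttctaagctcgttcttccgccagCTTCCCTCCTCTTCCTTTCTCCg
RPL10: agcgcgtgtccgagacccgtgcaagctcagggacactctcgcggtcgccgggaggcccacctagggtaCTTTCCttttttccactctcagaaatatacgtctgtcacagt
RPL10L: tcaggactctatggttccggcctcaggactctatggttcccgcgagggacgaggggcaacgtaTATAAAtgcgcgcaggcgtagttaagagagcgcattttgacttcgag

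All 77 canonical genes were open in every library. Of all 91 genes, 88 were open in all 6 libraries, against 13721 of the 20037 protein-coding genes (68.5%). The open share of the 91 genes was 96.7% in all 4 shHNRNPU libraries and in shLUC repeat 2, and 97.8% in shLUC repeat 1. The exact 95% interval, which covers counting error only, ran from 90.7% to 99.3% at 96.7%. Among all protein-coding genes the open share was 73.4% to 75.4%, and among the 10736 that are no longer than the longest canonical member it was 65.8% to 68.3%. The shHNRNPU mean minus the shLUC mean was -0.55 percentage points for the ribosomal protein genes, which came from 1 gene in 1 library, and the groups overlapped.

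**Figure D1:**
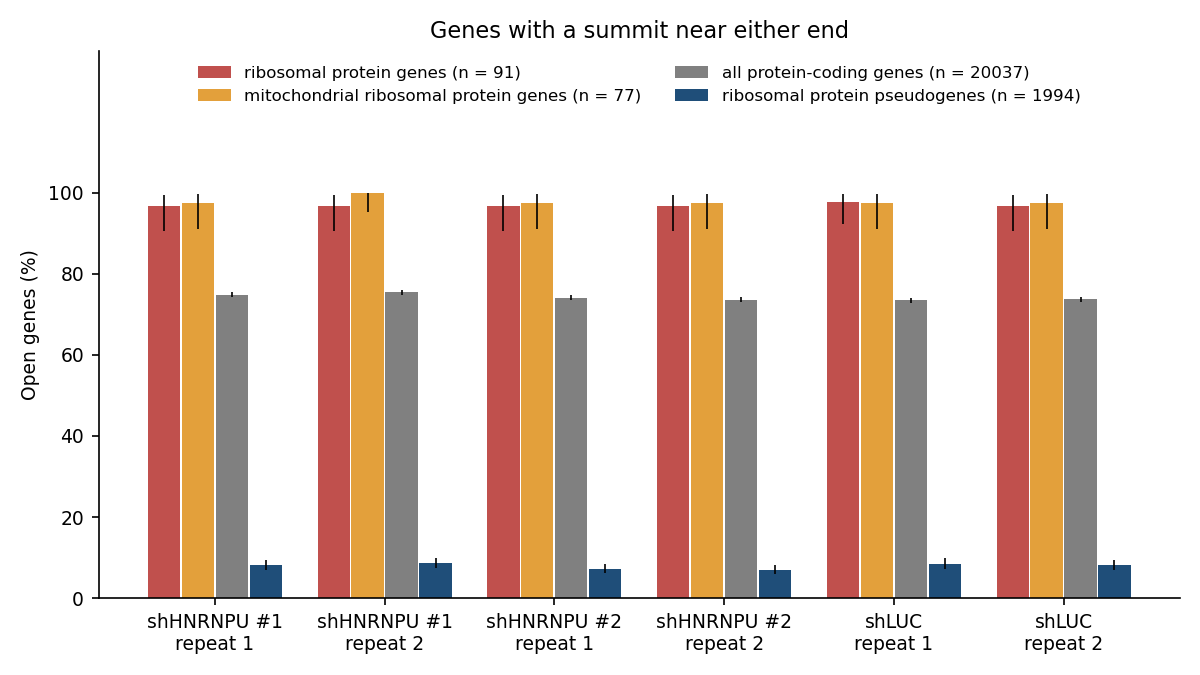
Share of genes with a summit within 2000 bp of either end (y axis, %), for each of the 6 libraries (x axis), in ribosomal protein genes, mitochondrial ribosomal protein genes, all protein-coding genes and ribosomal protein pseudogenes. Error bars are exact 95% binomial intervals. Both families of ribosomal protein genes stand above 96% in every library and the pseudogenes below 9%.

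The 3 genes that were not open throughout were all outside the canonical set. RPL10L, an intronless paralog of RPL10 known from testis, had a summit in shLUC repeat 1 only, at the 39.3 percentile, at -161 bp from its start, on the upstream side. RPL10 itself, on the X chromosome, was open in all 6 libraries, at 93.7, 92.4, 90.1 and 90.4 with shHNRNPU and at 90.1 and 91.0 with shLUC. The sequences of this pair, shown above, differ in that RPL10L holds the TATA box TATAAA in the printed stretch and RPL10 holds CTTTCC. RPL26L1, a paralog of RPL26, had no summit near either end of the gene as annotated. Its listed starts lie at least 4635 bp inside the gene, and all 6 libraries had a summit 437 to 567 bp downstream of one of them. Thus RPL26L1 was missed by a rule that looks only at gene ends. The remaining gene is Y-linked and its level is not given. The paralogs RPL3L, RPL7L1, RPL22L1, RPL36AL, RPL39L and RPS27L were open in all 6 libraries.

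The pseudogenes gave the opposite picture. Of the 1994 ribosomal protein pseudogenes in the table, 6.97% to 8.63% were open in a library and 86 (4.31%) in all 6. Of the 1778 pseudogenes whose ends lie more than 4000 bp from any protein-coding gene end, 5.40% to 6.86% were open. The open pseudogenes had median best-summit percentiles of 50.8 to 59.0, against 88.2 to 90.4 for the open ribosomal protein genes. The copies resemble their parents in sequence, and how the reads of near-identical copies were placed is not given in the sources used here.

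At the ribosomal protein genes the strongest summit usually ranked high. The median best-summit percentile of the 91 genes was 89.6, 90.2, 89.6 and 88.1 in the shHNRNPU libraries and 88.1 and 87.6 in the shLUC libraries. For all protein-coding genes it was 69.8 to 77.5, and for the open ones alone 82.4 to 85.6. Each library placed 40 to 47 of the 91 genes over the 90th percentile. Averaged over the libraries, 40 of the 77 canonical genes (51.9%) were over 90, against 24.6% of all protein-coding genes, and 14 (18.2%) were over 95, against 12.8%. The excess over all genes was thus larger over 90 than over 95. When genes were ranked among the open protein-coding genes of a library, the median ribosomal protein gene stood at the 61.8 to 64.6 percentile.

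The top of the family was steady across libraries. RPS3A, of the small subunit, had percentiles of 99.4, 99.3, 99.8 and 97.8 with shHNRNPU and 99.7 and 99.6 with shLUC. RPS12, also of the small subunit, had 99.6, 99.6, 99.5 and 98.0 with shHNRNPU and 99.4 and 99.3 with shLUC. RPL27A, of the large subunit, had 98.9, 99.5, 99.8 and 97.7 with shHNRNPU and 98.7 and 98.2 with shLUC. In these 3 genes shHNRNPU #2 repeat 2 was the lowest of the 6 libraries, and the groups overlapped. RPL27 had 99.1, 97.5, 98.7 and 98.3 with shHNRNPU and 97.8 and 95.6 with shLUC, so that 1 shLUC library reached into the range of the shHNRNPU libraries.

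The 5 canonical genes with the lowest means varied far more. RPL19, of the large subunit, had the lowest mean of the canonical genes, with percentiles of 72.2, 57.7, 61.7 and 69.7 with shHNRNPU and 45.4 and 55.1 with shLUC. RPL14 had 51.4, 39.6, 79.8 and 66.7 with shHNRNPU and 57.4 and 76.0 with shLUC. RPS29 had 76.6, 79.9, 65.4 and 34.7 with shHNRNPU and 66.8 and 76.8 with shLUC. In both RPL14 and RPS29 the lowest and the highest of the 6 libraries carried shHNRNPU hairpins. RPS27 had 62.1, 56.4, 80.1 and 73.3 against 79.1 and 53.1. RPL23 had 69.7, 61.5, 88.7 and 63.5 against 50.8 and 72.2. Of these 5, only in RPL19 did the groups not overlap. Over the canonical genes the median SD of the percentile over the 6 libraries was 3.36 points, against 4.78 points for all genes open throughout. These SDs were not matched for level, and differences narrow at high percentiles in all genes. The 10th to 90th percentile of the group difference over all genes ran from -11.4 to 23.9 points at means of 50 to 60. At means of 90 to 100 it ran from -2.60 to 3.39 points.

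**Figure D2:**
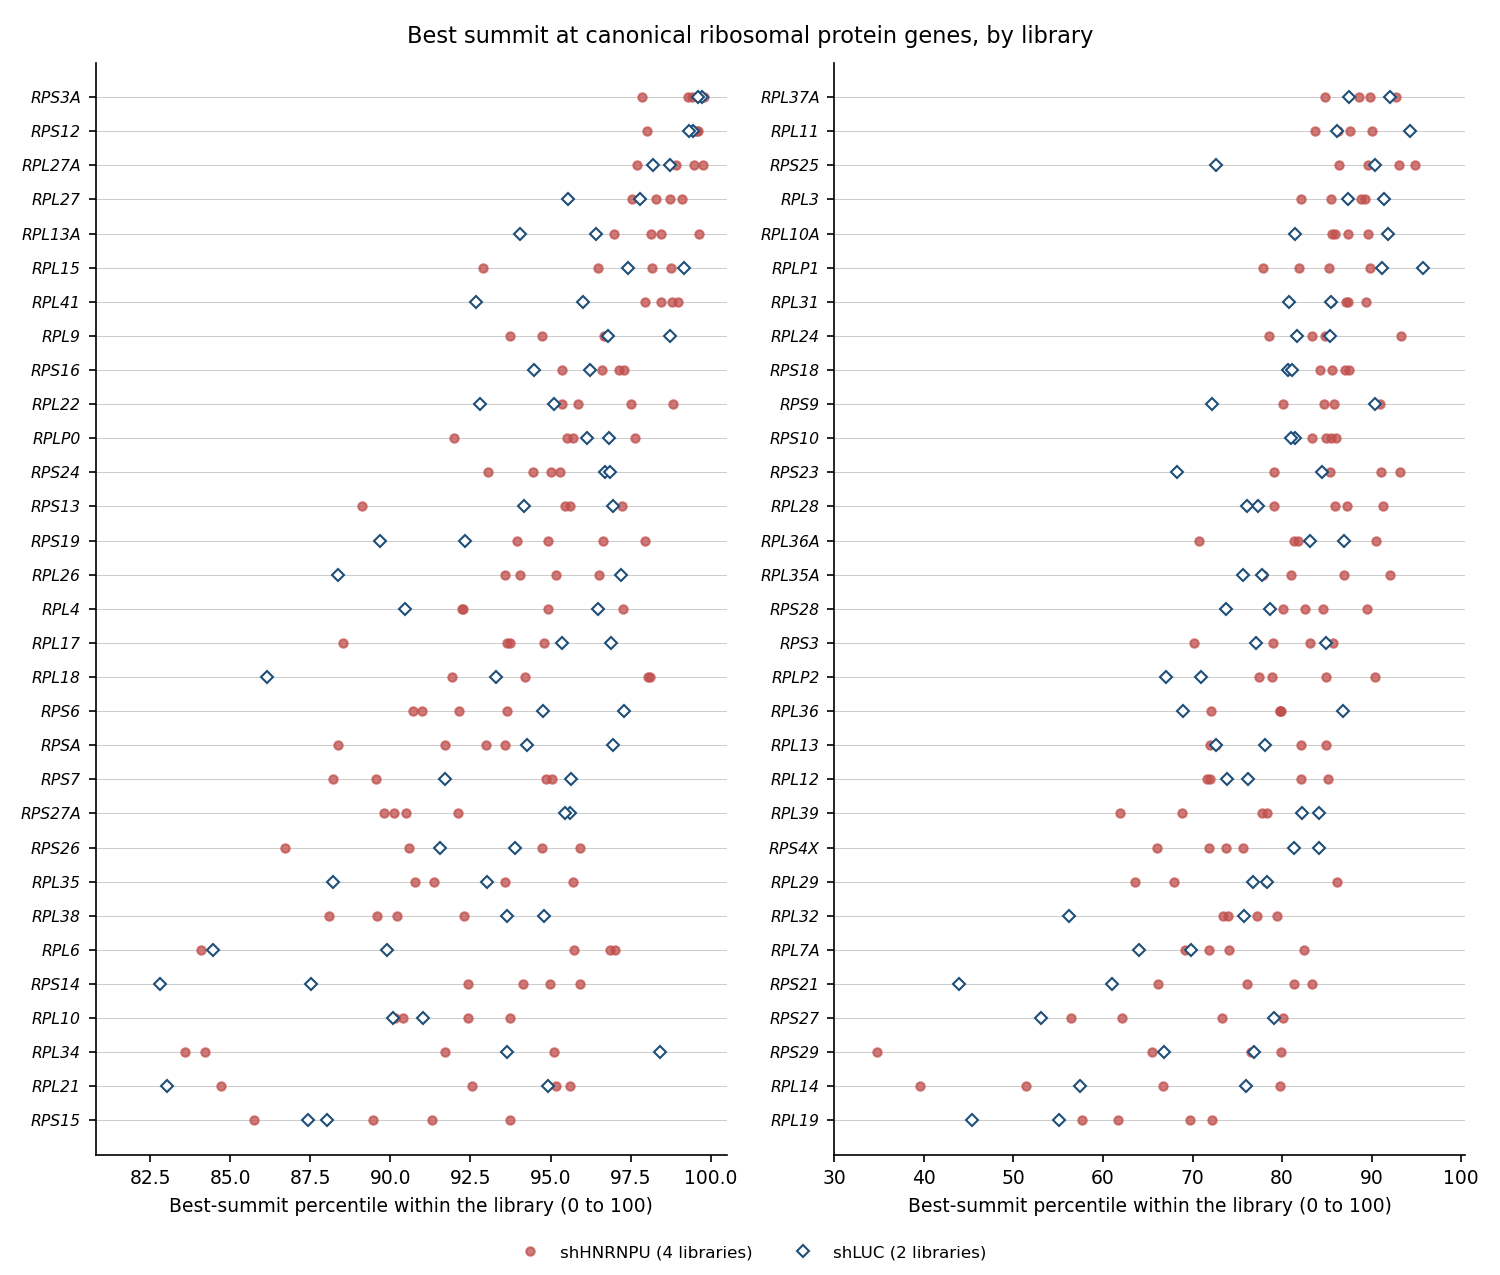
Best-summit percentile (x axis) of the 62 canonical ribosomal protein genes with a listed start (y axis, ordered by mean from the top of the left panel to the foot of the right panel), with filled circles for the 4 shHNRNPU libraries and open diamonds for the 2 shLUC libraries. The panels have different x scales. The spread tends to widen from RPS3A, between 97.8 and 99.8, to genes of low mean such as RPL14, between 39.6 and 79.8, and RPS29, between 34.7 and 79.9.

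The subunits did not stand apart in these levels. The median of the mean percentiles was 89.8 for the 46 large subunit genes and 91.3 for the 31 small subunit genes. Hosts of snoRNAs were also near the rest. A total of 29 canonical genes contained 60 annotated snoRNA genes, up to 4 each, as in RPL3, RPL4, RPL7A and RPL13A. Their median was 91.2, against 89.7 for the 48 canonical genes without a snoRNA. They carried 1.37 summits on average, against 1.23.

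Most genes had a single summit. The mean number per ribosomal protein gene was 1.25, 1.24, 1.22 and 1.23 with shHNRNPU and 1.25 and 1.19 with shLUC. The number was exactly 1 in every library at 52 genes, at least 2 in every library at 11, and never above 3. Among the genes open throughout, 59.1% of the ribosomal protein genes had exactly 1 summit in every library, against 51.4% of all protein-coding genes. RPL13, of the large subunit, had the most, with 3, 2, 3 and 2 summits with shHNRNPU and 3 and 3 with shLUC. RPL3 and RPSA each had 3 summits in shHNRNPU #1 repeat 1 and 2 in the other libraries. RPL4 had 3 in shLUC repeat 1 and RPL41 had 3 in shHNRNPU #2 repeat 2, with 2 elsewhere. Summits at 43 of the 91 genes may belong to another gene, since a further protein-coding gene had an end within 2000 bp of theirs.

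The summits lay just upstream of the starts. The promoter table listed a start for 62 of the 77 canonical genes, and each of them had a summit within 2000 bp of a listed start in all 6 libraries, against 71.3% of the 15842 protein-coding genes with a listed start. The median distance of the nearest summit was -90.5 bp, on the upstream side, with quartiles of -132.75 and -63.25 bp. At 58 of the 62 genes (93.5%) the median distance was within 250 bp of the start. The exceptions were RPS19 at -544.5 bp, RPL6 at -338.5 bp, RPL4 at -334 bp and RPLP2 at -264 bp. Among these 62 genes the median distance lay inside the gene only at RPL37A (14.5 bp) and RPS27A (20 bp), 3.23% of the 62. The share was 26.8% of all genes with a start summit in every library and 26.5% of the mitochondrial ribosomal protein genes. At RPS27A, with 3 listed starts, the 20 bp is a midpoint between summits on both sides. They lay at 326, 366, -286 and -347 bp with shHNRNPU and at 385 and -373 bp with shLUC. None was within 250 bp, so RPS27A counts among the 58 by its median only.

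**Figure D3:**
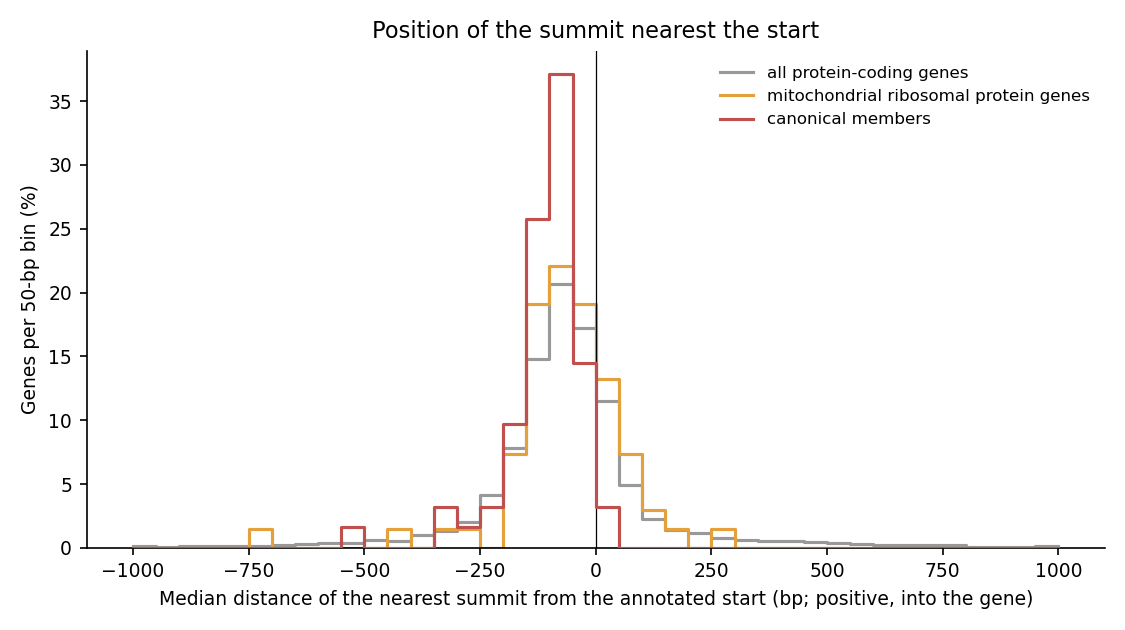
Distribution of the median distance over 6 libraries between the annotated start and the nearest summit (x axis, bp, positive into the gene) as the share of genes per 50-bp bin (y axis, %), within 1000 bp of the start. The canonical ribosomal protein genes gather upstream of the start, with a median of -90.5 bp against -65 bp for all protein-coding genes and -59.25 bp for the mitochondrial ribosomal protein genes.

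The position was also stable. The nearest summit moved over a median range of 102 bp between the 6 libraries, and by more than 250 bp at 4 of the 62 genes (6.45%), against 126 bp and 25.4% of genes for all protein-coding genes. The mitochondrial ribosomal protein genes were close to the family, with 101.5 bp and 7.35%. The median of the shHNRNPU mean minus the shLUC mean was 2.25 bp. All 4 shHNRNPU libraries had the summit farther into the gene than both shLUC libraries at 7 of the 62 genes (11.3%, against 8.19% of all genes), and farther out at 3 (4.84%, against 5.87%).

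Most promoters of the family had a start of the TOP kind. In the 62 canonical promoters the annotated start was a C in 46 (74.2%), against 11.3% of all 15842 promoters. A run of at least 5 C or T bases covered the start in 44 (71.0%), against 8.09% of all promoters and 7 of 69 promoters (10.1%) of the mitochondrial ribosomal protein genes. The run was 7 bases long at RPS3A, 11 at RPS12, 12 at RPL27A, 15 at RPS21 and 22 at RPL39, as the capitals over the start show above. At RPS3A these capitals also take in an overlapping CCGCCC, a match on the other strand to the motif GGGCGG described below. The letters CTTTCC, which overlap such runs, occurred on the gene strand within 50 bases before or after the start in 23 (37.1%), against 4.23%.

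Other motifs were searched on both strands of the 300-base promoters, which run from 250 bases before the start to 50 bases from it on. The ETS family core CCGGAAG was held by 21 of the 62 promoters (33.9%), among them those of RPS3A, RPL27A and RPS21, against 14.2% of all promoters and 18.3% of the promoters of genes open throughout. It was held by 42.0% of the mitochondrial ribosomal protein promoters, a larger share than in the cytosolic family. The YY1 motif AAGATGGCG was found in 5 (8.06%), against 2.69% of all promoters and 18.8% of the mitochondrial ribosomal protein promoters, and the NRF1 motif GCGCATGC in 3 (4.84%), against 4.28%. The SP/KLF box GGGCGG was found in 34 (54.8%), against 58.3%, and TATAAA in 5 (8.06%), against 9.75%. Against the promoters of genes open throughout, these shares compare with 3.65% for AAGATGGCG, 5.34% for GCGCATGC, 70.8% for GGGCGG and 5.86% for TATAAA, so that the direction turned for GCGCATGC and TATAAA. The median GC content was 59% in the family and 62.7% in all promoters. Canonical genes with CCGGAAG had a median of the mean percentiles of 87.8, against 91.0 without it, and those with a run of at least 5 C or T bases over the start had 88.5, against 90.3 without. The order turned for a run of at least 8 bases, with 90.1 against 88.6 without. These are matches of letters, and neither binding nor TOP control was measured.

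Between shHNRNPU and shLUC the ribosomal protein genes had members on both sides. The library medians averaged 89.4 ± 0.902 (SD, n = 4) in the shHNRNPU group. In the shLUC group they averaged 87.8 ± 0.332 (SD, n = 2), so that the groups differed by 1.53 percentile points. The difference was 2.88 points with summits of a score of at least 5, and 0.21 points over the 48 members without another gene end within 2000 bp, a setting chosen after seeing the data. The lowest shHNRNPU library and the highest shLUC library both rounded to 88.1, so the groups barely separated. For all protein-coding genes the same difference was 3.58 points, with overlapping groups. Over the open genes of each library alone, the difference was 1.13 points for the ribosomal protein genes and 1.58 points for all protein-coding genes. The groups overlapped in both. Over the 77 canonical genes, all open in every library, the difference was 1.20 points. There the groups did not overlap, with 89.5 in the lowest shHNRNPU library and 89.4 in the highest shLUC library. Gene by gene, the median difference was 0.68 points over the 89 ribosomal protein genes with a summit in any library, and 0.99 points over the 15981 such protein-coding genes.

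The groups were separated at 29 of the 89 genes. The best-summit percentile was higher in every shHNRNPU library at 18 (20.2%), where the background over all 15981 genes was 14.0%. It was lower at 11 (12.4%), where the background was 6.81%. The background differed with the mean percentile. At 60 to 75 it was 17.4% higher and 4.63% lower, against 2 and 0 of 8 members. At 75 to 90 it was 16.9% and 6.96%, against 8 and 3 of 35. At 90 to 95 it was 11.9% and 10.2%, against 5 and 6 of 28. At 95 to 100 it was 11.1% and 9.26%, against 3 and 2 of 16. None of the 89 genes had more summits in every shHNRNPU library (background 1.25%) or fewer (background 1.27%). With 4 libraries against 2 there are 15 assignments, so the smallest two-sided exact permutation p was 0.133 for any gene, no gene could pass 0.05, and the smallest Benjamini-Hochberg adjusted p was 0.641 over all genes. The separations are therefore descriptions. Without shLUC repeat 2, 31 genes were higher and 19 lower (background 30.3% and 17.8%), and without shLUC repeat 1, 28 and 17 (background 25.5% and 17.9%).

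When the percentile was taken among the open protein-coding genes of each library, a scale chosen after seeing the data, 13 were higher and 10 lower, against 11.1% and 8.72% of all genes. By this scale 12 of the 18 stayed higher and 10 of the 11 stayed lower. Among all genes the higher calls made up 2235 of 3323 separations on the first scale and 1778 of 3171 on the second.

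Among the genes that were higher, RPS21, of the small subunit, had the largest difference. It had percentiles of 81.3, 76.0, 83.3 and 66.1 with shHNRNPU and 61.0 and 43.9 with shLUC, a difference of 24.2 points. RPLP2, an acidic protein of the stalk of the large subunit, had 84.9, 90.4, 77.5 and 78.9 with shHNRNPU and 67.0 and 70.9 with shLUC, a difference of 14.0 points. In both genes every shHNRNPU library lay above both controls, and the shLUC libraries of RPS21 lay 17.1 points apart. RPL19, given above, differed by 15.03 points, but did not separate the groups on the scale of open genes.

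RPS14 and RPL28 showed smaller differences. RPS14, a small subunit gene deleted in a form of myelodysplastic syndrome, had 94.2, 95.9, 94.97 and 92.4 with shHNRNPU and 87.5 and 82.8 with shLUC. RPL28 had 87.2, 79.1, 85.9 and 91.3 against 77.3 and 76.1, and its groups overlapped on the scale of open genes. The differences were 9.22 and 9.15 points. A further 12 genes that were higher differed by 2.93 to 7.97 points, and they included RPL13A, RPL22, RPL41, RPS18, RPS19 and RPS28. RPS10 and its read-through gene RPS10-NUDT3 share a start and had the same best summit, so they count as 1 locus.

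Among the genes that were lower, RPL39 and RPS4X had the largest differences, and both are on the X chromosome. RPL39, a small protein of the large subunit, had percentiles of 78.4, 77.7, 68.8 and 61.8 with shHNRNPU and 82.3 and 84.2 with shLUC, a difference of -11.5 points. RPS4X, the X-linked small subunit gene, had 73.8, 66.0, 75.6 and 71.8 with shHNRNPU and 81.3 and 84.1 with shLUC, a difference of -10.9 points. The control libraries of both genes lay within 3 points of each other and above every shHNRNPU library. RPLP1, the stalk partner of RPLP2, had 89.8, 77.9, 85.3 and 81.8 with shHNRNPU and 91.2 and 95.8 with shLUC, a difference of -9.79 points. The stalk genes RPLP1 and RPLP2 thus lay on opposite sides, while RPLP0, which anchors them, had overlapping groups with 92.0, 95.7, 97.7 and 95.5 against 96.8 and 96.2.

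Smaller differences held at genes with stronger summits. RPS27A, whose product is made as a fusion with ubiquitin, had 90.5, 89.8, 92.1 and 90.1 with shHNRNPU and 95.6 and 95.4 with shLUC, a difference of -4.92 points. RPL38 had 89.6, 90.2, 92.3 and 88.1 with shHNRNPU and 94.8 and 93.6 with shLUC, a difference of -4.18 points. RPS6, the small subunit protein phosphorylated downstream of mTOR, had 93.7, 91.0, 92.1 and 90.7 with shHNRNPU and 94.8 and 97.3 with shLUC, a difference of -4.16 points. The other lower genes were RPSA, RPL36AL, RPL17, RPS24 and RPL9, at -3.95 to -2.31 points. RPS27A and RPL38 also had lower scores in every shHNRNPU library, as did RPL39 and RPS4X, the only 4 of the 11. Of the 18 genes that were higher, 13 also had higher scores in every shHNRNPU library. By score alone 18 of the 89 genes were higher, against 19.3% of all genes, and 4 lower, against 3.65%.

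**Figure D4:**
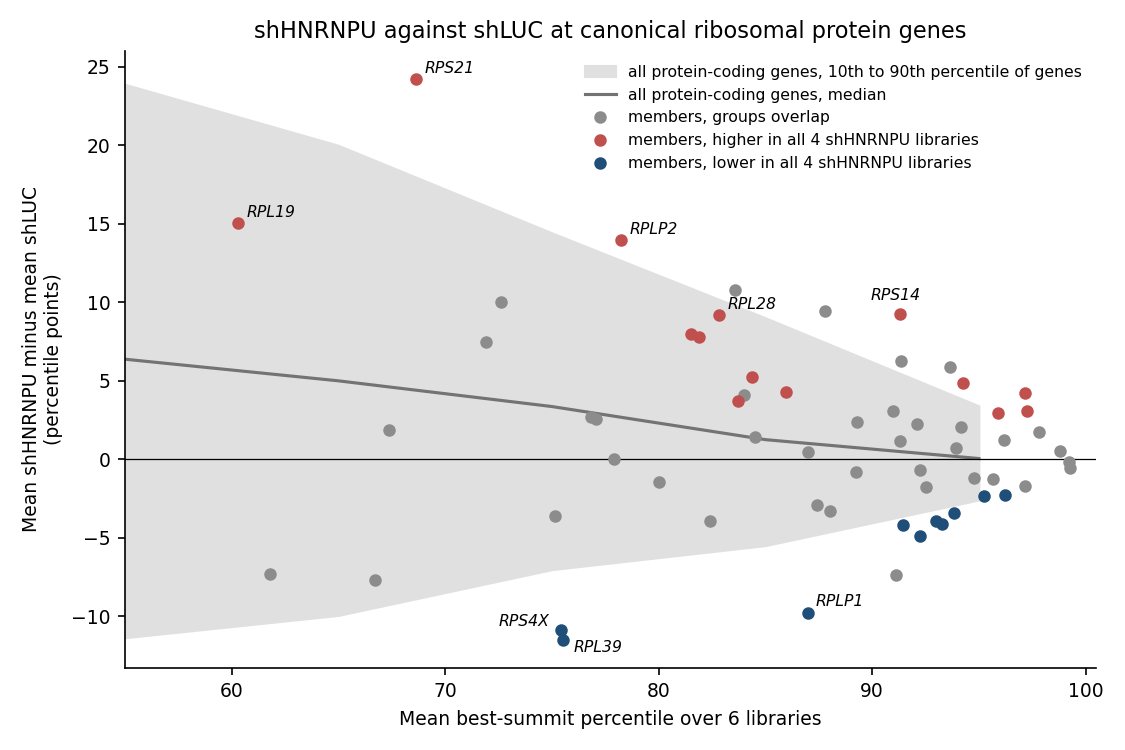
Difference between the shHNRNPU and shLUC means of the best-summit percentile (y axis, percentile points) against the mean percentile over 6 libraries (x axis) at the 62 canonical ribosomal protein genes with a listed start, coloured by whether the groups overlap. The line and the band give the median and the 10th to 90th percentile of all protein-coding genes in bins of 10 percentile points. The differences run from -11.5 at RPL39 to 24.2 at RPS21 and narrow where the mean is high.

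By subunit, 9 of the 46 large subunit genes were higher and 5 lower, and 8 of the 31 small subunit genes were higher and 5 lower, where the background was 14.0% and 6.81%. The median difference was 0.98 points for the large subunit and -0.21 points for the small. By chromosome, 6 of the 12 genes on chromosome 19 were higher, among them RPS28, RPS19, RPL13A and RPL28, and none was lower. Of all 1159 genes with a summit there, 25.7% were higher and 2.67% lower, and their median difference was 3.16 points, the highest of the 24 chromosomes. The X chromosome held 5 of the 91 genes, of which 2 were lower, against 7.44% of its 511 genes.

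The base composition of the promoters moved with the side. In the family the median GC content was 61.3% at the 14 canonical promoters of genes that were higher, 58.5% at the 38 with overlapping groups and 56.7% at the 10 that were lower. Over all genes it was 67% at those higher, 64.7% at those overlapping and 62% at those lower. The part of base composition, of chromosome and of the library as a whole in these differences was not tested.

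Related gene groups were examined in the same way. The 77 genes for mitochondrial ribosomal proteins, which are encoded in the nucleus and serve the ribosome of the organelle, were open at 97.4% to 100% and had median percentiles of 84.3 to 89.5. They were higher at 9 (11.7%, against 14.0% of all genes) and lower at 6 (7.79%, against 6.81%). MRPS34 had the largest difference, with 79.5, 83.4, 79.2 and 77.6 against 43.8 and 53.7. MRPL44 was open in 1 library, MRPL35 in 2 and MRPS18A in 5.

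Among cytosolic ribosomal protein genes with other symbols, RACK1 had 64.1, 61.5, 63.2 and 58.7 with shHNRNPU against 57.2 and 28.4 with shLUC, and FAU had 84.4, 90.6, 90.1 and 85.8 against 96.5 and 91.7. RACK1 was thus higher and FAU lower in every shHNRNPU library. All 16 genes of a further list with TOP transcripts, which holds translation genes and others such as VIM, were open throughout. Their median percentiles were 94.4 to 96.5. Of these, 3 were higher (background 14.0%), among them EEF2 by 13.7 points, and none was lower (background 6.81%). VIM (14.9 points) and EIF3L (-6.25 points) had overlapping groups.

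Of the 26 ribosome assembly genes, 25 were open throughout, 2 were higher and 4 lower (background 14.0% and 6.81%). PES1 differed by 20.4 points and UTP4 by 13.4, both higher, and GAR1, of the H/ACA snoRNPs, was lower, with a difference of -7.06 points. BYSL had no summit near its annotated ends, but all 6 libraries had one at -322 to -119 bp from a listed start inside the gene, on the upstream side. The median percentile of the assembly list was 88.4 to 90.3 in the shHNRNPU libraries and 91.1 to 91.3 in the shLUC libraries. It differed by -2.19 points, in the opposite direction to the ribosomal protein genes, and the groups did not overlap.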

How the data were processed

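Summit lists of 6 ATAC-seq libraries, grouped by sample title, were used as the authors deposited them. The submitters' processing notes name cutadapt, Bowtie2, SAMtools, MACS2 and deepTools and the build hg38, and versions are not given in the sources used here. The article linked to the series describes other experiments, so it was not taken as a source of methods. The deposited score, by its layout and values, is the −log10 q-value that MACS2 gives a summit's peak, called in each library separately and not normalised between libraries. Depth is unknown, so a gene without a summit is one where none was called, and counting intervals do not cover depth.

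Percentiles were ranks by score within a library's full list. Genes, starts and promoters came from the RefSeq tables (GRCh38.p14), and 72 of the 91 genes had a listed start. For a gene with several, the most upstream served for motifs and any for distances. Per-gene differences were tested with a two-sided exact permutation test over 15 assignments, adjusted over all 15981 genes with a summit. The smallest p it can give is 0.133. No replicate number was taken as pairing the libraries, since nothing in the labels says that it marks a shared day or batch.

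The members, lists, named-gene rule and alternatives were chosen with earlier results of these data known. Named genes were those not open throughout, the 5 highest and 5 lowest by mean percentile (Y-linked genes aside), the 5 with most summits, and up to 6 separated genes per direction. From the other lists, 3 genes open in fewest libraries and 3 of largest difference were named. Some genes that this rule names are not reported here. Pseudogenes, base composition and chromosomes were looked at after the data had been seen. As alternatives, the lists were limited to scores of at least 5 or to one size, and the other settings were a distance of 500 bp, canonical or autosomal members only, each library left out, each hairpin alone and comparison within repeats. Scripts were tested on simulated data. Python 3.11.15, numpy, pandas, scipy, statsmodels and matplotlib were used.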

Additional observations from a re-analysis of the deposited data

Results flagged for a closer look

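In RPS12, shHNRNPU #2 repeat 2 stood apart from the other 3 shHNRNPU libraries, with a best-summit percentile of 98.0 against 99.5 to 99.6. This was 1 of 29 measures examined in the 4 shHNRNPU libraries, of which chance gives about 1 in 20, or 1.45. RPL12, of the large subunit, lay on opposite sides of shLUC with the 2 hairpins, at 85.1 and 82.2 with shHNRNPU #1 and at 71.9 and 71.6 with shHNRNPU #2, against 73.9 and 76.2 with shLUC. The hairpin means differed by 11.8 percentile points, and the difference was not tested. Of all 15981 genes, 358 (2.24%) had the hairpins on opposite sides in the same way.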

How the results depend on the processing

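Of 123 recomputed values, 32 moved, by more than the SD between replicates or, for counts, by more than 1.5 times. The difference of the medians, whose groups did not overlap when members without a summit counted as 0, kept its sign. Over open members alone it was 1.13 points and the groups overlapped. Over the 77 canonical genes, all open in every library, it was 1.20 points and the groups did not overlap. The differences in open share and in summits per gene, whose groups overlapped over the 91 genes, changed sign under some settings. The difference of 1.53 points between the medians was 2.88 with a score of at least 5, 2.58 with lists of one size and 0.21 over the 48 members with no other gene end within 2000 bp, a setting chosen after seeing the data. In that setting 46 genes were open throughout, 7 were higher and 6 lower (background 12.8% and 7.18% of the 9384 such genes with a summit), and the open share differed by -1.04 points. At a distance of 500 bp the open share differed by 0.55 points, against -0.55, and the summits per gene by -0.0027, against 0.016. The open share differed by 0 in canonical members. Their summits per gene differed by 0.032 and the groups did not overlap, at 1.29 to 1.31 with shHNRNPU against 1.27 and 1.25 with shLUC. With shHNRNPU #1 alone 30 genes were higher and 17 lower (background 33.3% and 12.4%), and 2 had more summits (background 3.95%). With shHNRNPU #2 alone 24 were higher and 20 lower (background 19.6% and 16.5%), and 1 had fewer summits (background 2.82%). A score of at least 5 gave 1 gene with more summits (background 1.37%) and 1 with fewer (background 0.721%). Lists of one size gave 1 with more (background 1.35%).

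Leaving out each library, the open share difference ran from -1.10 to 0, the median difference from 1.26 to 1.96 and the summits per gene from -0.016 to 0.049. Higher genes ran from 19 to 31 (background 15.8% to 30.3%) and lower from 11 to 19 (8.62% to 17.9%). Genes with more summits ran from 0 to 2 (1.67% to 3.77%) and with fewer from 0 to 4 (1.66% to 5.73%). The open-throughout count was 88 each time. The highest counts came without shLUC replicate 2 (background 30.3% and 17.8%) and without shLUC replicate 1, which gave 28 higher and 17 lower (25.5% and 17.9%), since 1 control is easier to separate from. Without shLUC replicate 1 the open share differed by 0.

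With the replicate block, the difference was again 1.53 points, and 20 genes were higher and 13 lower in both repeats (background 19.2% and 10.0%). Deviations of same-numbered libraries correlated at 0.24 between the hairpins and at -0.24 and -0.16 with shLUC, so the numbers were not taken as pairs. Read depth, which is unknown, limits what a missing summit means.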
